A study of Arabidopsis thaliana with 58 samples.

Results

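The gene body window of *MSH3* measured here lies behind *FWA* on chromosome 4 of Arabidopsis and was read in the same bisulfite PCR sequencing (BS-PCR-seq) libraries as the *FWA* promoter. Its members were chosen by position and depth: cytosines on the plus strand from 13044647 to 13044770 (TAIR10) with at least 1000 reads in every library. Of 101 cytosines that passed this minimum, 27 belonged to the window: 7 CG sites, 2 CHG sites and 18 CHH sites (H is A, C or T). The other 74 lie in *FWA*, so *MSH3* was 1 of 2 genes covered. The methods of the study name 3 amplified regions, all at the *FWA* promoter, and this window is not among them. Its depth was 1.20 to 4.22 times that of the *FWA* regions in the same library, and the primers listed with the study are those of the 3 *FWA* regions, so the primers of this window are not given in the sources used here.

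*MSH3* (AT4G25540) encodes a MutS homologue, a protein that recognises mismatches and small loops in DNA during mismatch repair. Many transcribed Arabidopsis genes carry gene body methylation, which is methylation of cytosines in CG context within exons and introns that is copied at each replication by the maintenance methyltransferase MET1 and usually comes without methylation in CHG or CHH context. *FWA*, a homeodomain transcription factor gene that delays flowering when active, is methylated at its promoter and silent in Col-0. The *fwa* epiallele lacks this methylation and is active. In BS-PCR-seq, bisulfite converts unmethylated cytosine so that it is read as T, and the share of reads that keep C at a position is its methylation level.

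On TAIR10.1 the annotated *MSH3* gene runs from 13042455 to 13048262 on the minus strand and has 12 exons. Its 3' end overlaps the annotated end of *FWA* (13038360 to 13042464, plus strand) by 10 bp. The window of 124 bp starts 2183 bp beyond the end of *FWA* and 5952 bp beyond the last base of the third promoter region. Of the 7 CG sites, 5 lie in exon 7 (13044680 to 13044811) and those at 13044660 and 13044669 lie in intron 7 (13044343 to 13044679). The measured strand is opposite to the coding strand of *MSH3*. The reference sequence of the window (RefSeq, TAIR10.1, plus strand, 5' to 3') is shown because all results refer to its CG sites, which are in capitals.
MSH3 window, chr4:13044647-13044770: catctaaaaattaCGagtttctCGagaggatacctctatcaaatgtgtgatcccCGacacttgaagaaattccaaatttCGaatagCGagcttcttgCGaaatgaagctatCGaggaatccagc

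Each CG site is named by the position of its C. Their 14-base surroundings, with the CG in capitals, are shown to compare the bases beside sites that behaved differently in the comparisons.
CG 13044660: aaattaCGagtttc
CG 13044669: gtttctCGagagga
CG 13044701: gatcccCGacactt
CG 13044726: aaatttCGaatagc
CG 13044733: gaatagCGagcttc
CG 13044744: ttcttgCGaaatga
CG 13044758: agctatCGaggaat

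The study asked whether histone H3 lysine 4 trimethylation (H3K4me3) and DNA methylation oppose each other, by tethering enzymes to *FWA*. All plants were of the Columbia-0 ecotype, leaves were taken at 4 to 5 weeks, and 47 libraries were analysed here, 45 of them in 13 conditions. Untransformed controls were Col-0 (3 plants), *rdd* (2 plants, with *ROS1*, *DML2* and *DML3*, which encode DNA demethylases, all mutated), *rdr6* (2 plants, lacking an RNA-dependent RNA polymerase, a mutation used to limit transgene silencing), *fwa* (3 plants) and fwardr6 (1 plant). SDG2-ZF joins the catalytic part of the H3K4me3 methyltransferase SDG2 to a zinc finger that binds *FWA*, under the UBQ10 promoter according to the methods, and was measured in 8 Col-0 lines, 8 *rdd* lines and 2 *rdr6* lines. Each line was sampled in 1 library. The study reports that this zinc finger also binds many other sites in the genome. Where such a site lay in a methylated gene body, it reports a local loss of methylation with SDG2-ZF. Whether the zinc finger binds at *MSH3*, and whether H3K4me3 changed there, was not tested here. SDG2cd(H1866K)-ZF (4 plants) carries a substitution in the catalytic part. SunTag-SDG2 brings SDG2 to *FWA* through dCas9 and was measured in 2 WT and 2 *rdr6* plants. The construct dCAS9-MQ1 (4 plants) brings a bacterial CG methyltransferase to *FWA* through dCas9, and TRBIP1-dCAS9-MQ1 (4 plants) adds TRBIP1, a protein the study used to remove H3K4me3. According to the methods, both MQ1 constructs were put into the *fwa rdr6* background, which the labels do not state.

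The 47 libraries form 2 sets that the labels tell apart by their extract protocol. The 39 libraries of the first set had a median of 43804 to 108787 reads over the 27 *MSH3* cytosines, and no cytosine had fewer than 16968. The 8 libraries of the second set (2 Col-0 plants, 2 *fwa* plants and the 4 SDG2cd(H1866K)-ZF plants) had a median of 862115 to 1439050 reads, with no cytosine under 402340. Copies of 1 molecule made by PCR cannot be recognised here, so intervals cover counting error only. The counts may also hold both mates of a pair, in which case the intervals are too narrow for that error as well. The level of a library is the unweighted mean of its sites, in percent, and differences were tested with two-sided exact permutation tests over plants or lines. P-values were adjusted by the Benjamini-Hochberg method over 39 tests (13 comparisons in 3 contexts), with a threshold of 0.05. The labels number replicates without saying that each is a separate plant. They are called plants here, and p-values measure the spread between these samples, which may be technical in part. The interaction is the difference between the effects of SDG2-ZF in Col-0 and in *rdd*. For it the mean of the untransformed controls was subtracted as a fixed value and only the lines were permuted. Its p-value therefore leaves out the spread of the controls.

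Some libraries went against their labels. The library labelled SunTag-SDG2 WT replicate 1 had an *MSH3* CG level of 0.179% and an *FWA* CG level of 0.187%, inside the range of the *fwa* plants. The library labelled fwardr6 had 80.9% at *MSH3* and 5.62% at *FWA*, whereas the 3 *fwa* plants had at most 0.355% and 0.228%. For both, the cause was not tested.

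The *MSH3* window was heavily CG methylated in wild-type leaves. The 3 Col-0 plants had CG levels of 77.4%, 82.9% and 81.9%, a mean of 80.7% ± 2.9 (SD, n = 3). The plus-strand CHH level, which includes unconverted cytosines, was between 0.0518% and 0.101% in every library. The site means over the Col-0 plants ran from 73.7% ± 4.70 (SD, n = 3) at 13044726 to 87.1% ± 2.44 at 13044758, which was the highest site in 3 of 3 plants. The site at 13044744 varied most. It was 61.9% in the first-set plant (95% Wilson interval 61.5% to 62.2%, 62949 reads) and 77.0% and 83.1% in the second-set plants.

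**Figure D1:**
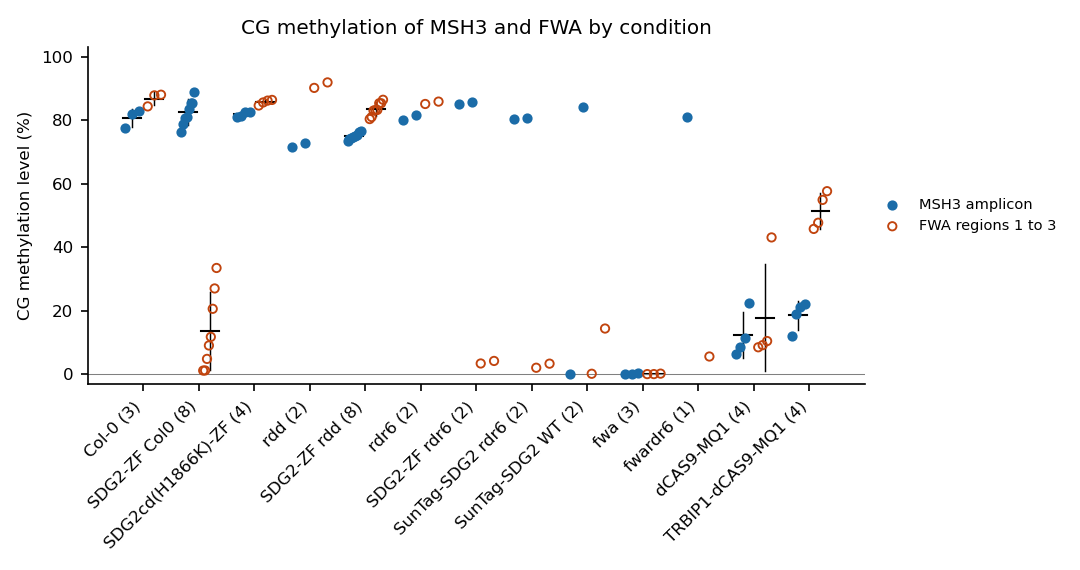
CG methylation level in percent of the *MSH3* window (filled points) and of *FWA* regions 1 to 3 (open points), 1 point per library, by condition with the number of libraries in brackets. Horizontal bars are means and vertical bars SD, drawn for groups of 3 or more. *MSH3* lies between 71.6% and 88.8% in the conditions from Col-0 to SunTag-SDG2 rdr6, whatever the *FWA* level, and at or under 22.6% in *fwa* and both MQ1 conditions.

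The *fwa* plants had almost no CG methylation in *MSH3*. Their levels were 0.0812%, 0.0610% and 0.355%, against 77.4% to 82.9% in Col-0. The mean was 0.166% ± 0.164 (SD, n = 3). Relative to Col-0 this is -80.6 percentage points, and all 7 sites were lower in each *fwa* plant than in any Col-0 plant. With 3 plants against 3 the exact permutation test cannot go below p = 0.1, which it reached (adjusted p = 0.3). At *FWA* the same plants had a mean of 0.131% ± 0.0842, against 86.7% ± 2.07 in Col-0.

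With SDG2-ZF in Col-0, *MSH3* CG levels overlapped those of Col-0, while *FWA* levels were far lower than in Col-0. The 8 lines had *MSH3* levels of 76.4% at the lowest, 82.2% at the median and 88.8% at the highest. Their range covered all 3 Col-0 plants. All 8 lines are of the first set, whose single Col-0 plant had 81.9%, against 77.4% and 82.9% in the second-set Col-0 plants. The mean of 82.5% ± 4.04 (SD, n = 8) was 1.74 percentage points above Col-0 (exact permutation p = 0.503, adjusted p = 0.701). This value moved with single plants. It was 0.0905 without Col-0 replicate 1 of the second set, 2.81 without replicate 2 of that set, 0.835 without line 13 and 2.62 without line 9, and it passed in none of these fits. In the same lines *FWA* was at 13.7% ± 12.1, or -73.0 percentage points relative to Col-0. The within-plant difference (*FWA* minus *MSH3*) was -68.8 percentage points ± 12.4 in the lines and 5.95 ± 0.991 in Col-0, and no line overlapped a Col-0 plant. It differed by -74.8 percentage points (exact permutation p = 0.00606, adjusted over 3 such tests 0.00909, the smallest that 8 lines against 3 plants allow being p = 0.00606).

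Single *MSH3* sites were tested among all 101 cytosines, with p-values adjusted over them. With 4 plants against 3 or 4, the smallest p of the exact permutation test is 0.0286. A call after adjustment then needs a large share of the 101 cytosines to reach that p at once. In SDG2-ZF Col0 against Col-0, 17.8% of the 101 cytosines were called (0.99% higher and 16.8% lower) and 2 of the 27 in *MSH3*, none of them a CG. The CG differences ran from -1.91 percentage points at 13044669 to 9.08 at 13044744, with 5 sites higher and 2 lower (13044669 and 13044701). At 13044744 the Col-0 plants had 61.9%, 77.0% and 83.1%, and the lines 75.4% to 90.6%. The 1 low Col-0 plant lowers the Col-0 mean at this site, which enlarges positive differences from Col-0 and shrinks negative ones. The called cytosines were the CHG at 13044767 and the CHH at 13044770, the outermost cytosine, and without any 1 of the 3 Col-0 plants the count was 0. The value at 13044767 was higher in the second set of libraries, as given with the CHG values. At 13044770 the lines, all of the first set, had 0.0336% to 0.0644% and the Col-0 plants 0.00729% to 0.0260%. The SDG2cd(H1866K)-ZF plants, all of the second set, had 0.00754% to 0.00825% there. Whether this call follows the set of libraries was not tested.

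The lines differed from each other in *MSH3* level, and no correlation with their *FWA* level passed the test, which over 8 lines can miss one. Over the 8 SDG2-ZF Col0 lines, Pearson's r between *MSH3* and *FWA* CG levels was 0.0999 (exact permutation p = 0.808) and Spearman's rho was -0.0952 (p = 0.840, exact permutation). Without the 2 lines farthest from the median *FWA* level, r was 0.0745 (exact permutation p = 0.890). Line 15 had the highest *FWA* level, 33.5%, with 78.7% at *MSH3*, and line 6 had the lowest *FWA* level, 1.19%, with 85.4% at *MSH3*. Over the 8 SDG2-ZF rdd lines r was -0.124 (exact permutation p = 0.761) and rho -0.167 (p = 0.703, exact permutation), while without the 2 farthest lines r was 0.699 (exact permutation p = 0.0861). After adjustment over the 2 groups the p-values were 0.808 for both r values and 0.840 for both rho values.

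**Figure D2:**
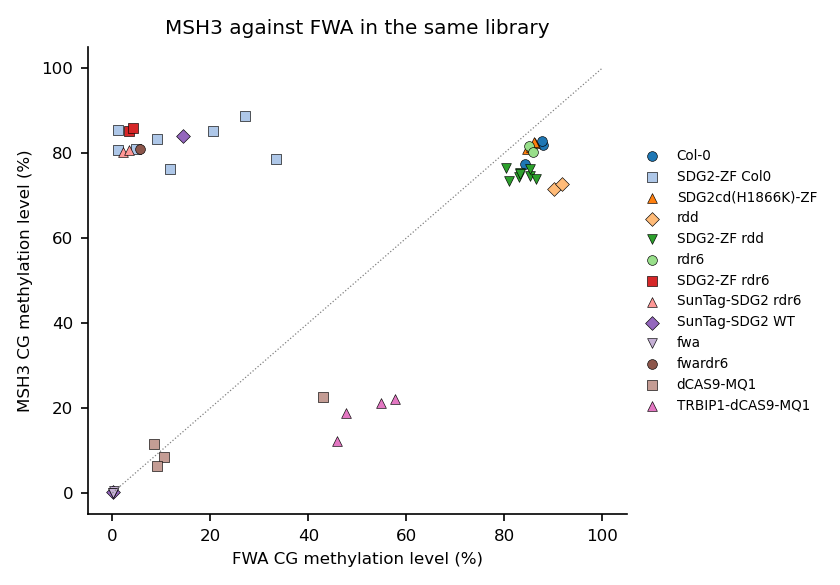
CG methylation level in percent of *MSH3* (vertical) against *FWA* (horizontal) in each library, marked by condition. The dotted line marks equal levels. The SDG2-ZF Col0 lines lie far above it, with *FWA* at 1.19% to 33.5% and *MSH3* at 76.4% to 88.8%, and the TRBIP1-dCAS9-MQ1 plants lie under it.

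The catalytic mutant had *MSH3* levels close to those of Col-0. The 4 SDG2cd(H1866K)-ZF plants had 82.4%, 81.0%, 81.4% and 82.6%, a mean of 81.9% ± 0.779 (SD, n = 4). The difference from Col-0 was 1.15 percentage points (exact permutation p = 0.629, adjusted p = 0.839) and that from the SDG2-ZF Col0 lines was -0.595 (exact permutation p = 0.772, adjusted p = 0.885), and the groups overlapped in both cases. The mutant plants are all of the second set and the SDG2-ZF Col0 lines all of the first. Between these 2 groups the set of libraries and the construct cannot be told apart. Against Col-0 the site differences ran from -1.10 percentage points at 13044669 to 7.73 at 13044744, and the smallest was 0.0583 at 13044758. At 13044744 the mutant plants had 80.2% to 83.1% and the Col-0 plants 61.9% to 83.1%, the lowest being the first-set plant. The sites at 13044669, 13044701 and 13044733 were lower and the other 4 higher. None of the 27 cytosines was called, and 0% of the 101 were. At an unadjusted p under 0.05 the count in *MSH3* was also 0 in the exact test, and the quasi-binomial logistic model called 0. For counts at an unadjusted p, from this model or with a plant left out, the share over the 101 cytosines is not given here.

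In *rdd* a single CG site of *MSH3* stood apart. At 13044701 the Col-0 plants had 74.6% to 83.9% and the *rdd* plants 2.20% and 0.705% (95% Wilson intervals 2.09% to 2.32% and 0.642% to 0.775%, from 67362 and 60543 reads). The 8 SDG2-ZF rdd lines had 0.187% to 0.600% there. All 10 libraries with the *rdd* background were therefore under 2.21%, and the SDG2-ZF Col0 lines were at 73.8% to 86.2%. The CHG cytosine at 13044700, the base before this site, had 0.0223% to 0.0955% in the 10 libraries and 0.667% to 1.26% in the SDG2-ZF Col0 lines. In bisulfite reads an unmethylated C and a T in the genome give the same base, so the loss of methylation at 13044701 and a difference of base cannot be told apart here. The other 6 CG sites had 74.3% to 89.6% as means over the *rdd* plants, each above its Col-0 mean, by 0.635 percentage points at 13044726 to 9.46 at 13044744. Both *rdd* plants are of the first set, and this order did not hold at every site against the first-set Col-0 plant. That plant lay above both *rdd* plants at 13044660 (88.7%), 13044669 (84.4%), 13044726 (77.3%) and 13044733 (88.2%). It lay below both at 13044744 and 13044758. At 13044744 the *rdd* plants had 82.5% and 84.3%, and the Col-0 plants ran from 61.9%, in the first-set plant, to 83.1%.

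**Figure D3:**
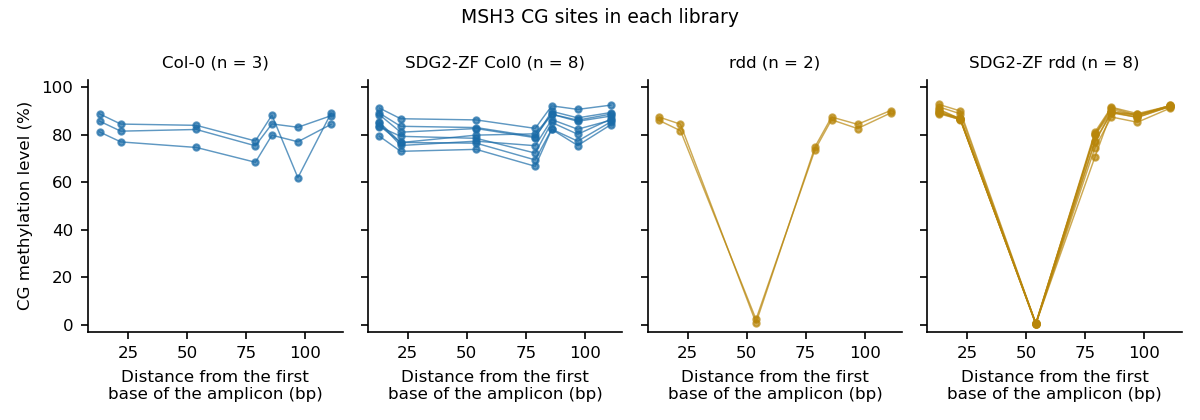
CG methylation level in percent of each *MSH3* CG site against its distance in bp from the first base of the window, 1 line per library, in Col-0, SDG2-ZF Col0, rdd and SDG2-ZF rdd. The site at 54 bp (13044701) is at 2.20% or less in every *rdd* library and at 73.8% or more in the others, while the other 6 sites are at or above 61.9% in all 4 panels.

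This 1 site decided the direction of comparisons across the backgrounds. Over 7 sites the *rdd* plants had 71.6% and 72.7%, a mean of 72.2% ± 0.792 (SD, n = 2), or -8.55 percentage points relative to Col-0 with no overlap (exact permutation p = 0.1, the smallest possible, adjusted p = 0.3). Over the 6 sites without 13044701, a set chosen after its values were seen, *rdd* was 3.15 percentage points above Col-0 (exact permutation p = 0.2). Over these 6 sites the first-set Col-0 plant had 81.6%, and the *rdd* plants, of the same set, 83.2% and 84.8%. Likewise, the SDG2-ZF Col0 lines were 7.52 percentage points above the SDG2-ZF rdd lines over 7 sites (exact permutation p = 0.000311, adjusted p = 0.00606), with overlap of the lowest Col0 line at 76.4% and the highest *rdd* line at 76.4%. Over 6 sites the difference was -4.45 percentage points (82.9% ± 4.05 against 87.4% ± 1.22, exact permutation p = 0.0101). The adjusted p over the tests of that alternative was 0.0788. Over the 2 intron sites alone, an alternative chosen with the design, the difference passed in the opposite direction (-6.41, exact permutation p = 0.00109, adjusted p = 0.0283).

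Site by site, the 2 backgrounds of SDG2-ZF differed in both directions. Of the 101 cytosines 28.7% were called (1.98% higher in the Col0 lines and 26.7% lower), and of the 27 in *MSH3* 6 were, of which 4 were CG sites. The site at 13044701 was 79.3 percentage points higher in the Col0 lines (79.7% ± 4.04 against 0.362% ± 0.156, n = 8 each, exact permutation p = 0.000155, adjusted p = 0.000981). The other 6 CG sites were lower, and of these 13044669 (-8.22 percentage points, adjusted p = 0.00554), 13044758 (-4.41, adjusted p = 0.00785) and 13044660 (-4.60, adjusted p = 0.0278) were called in the exact permutation test. The smallest difference was -1.94 at 13044726. The other 2 called cytosines were the CHG at 13044700, higher by 0.847 percentage points, and the CHH at 13044770, with a difference of -0.0197. In the same lines the *FWA* difference, Col0 minus *rdd*, was -69.8 percentage points, and the within-plant difference between the genes differed by -77.3 (exact permutation p = 0.000155, adjusted p = 0.000466).

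Within *rdd*, *MSH3* was slightly higher in the SDG2-ZF lines than in the untransformed plants. The 8 lines had 73.5% at the lowest, 74.8% at the median and 76.4% at the highest, and the 2 *rdd* plants lay under all of them at 71.6% and 72.7%. The difference was 2.77 percentage points (74.96% ± 1.05, n = 8, against 72.2% ± 0.792, n = 2), with the smallest p the design allows (exact permutation p = 0.0222, adjusted p = 0.124). It was 3.42 over the 6 sites (exact permutation p = 0.0222). Of the 7 CG sites, 6 were higher, by 2.31 percentage points at 13044758 to 4.24 at 13044669, and the difference at 13044701 was -1.09. None of the 27 cytosines was called and 0% of the 101 were, with adjusted p = 0.0510 for the 6 CG sites that reached the smallest p of the exact permutation test, all but 13044726. The quasi-binomial model called 7 of the 27, of which 6 were CG sites, and the exact test called 7 without SDG2-ZF rdd line 19. The share of the 101 called is not given for these 2 counts, so they are no result about *MSH3* in particular. The effect of SDG2-ZF on the *MSH3* CG level did not pass as different between the backgrounds (1.74 in Col-0 against 2.77 in *rdd*, difference -1.03, exact permutation p = 0.50, adjusted p = 0.701). That difference was -4.62 over the intron sites (exact permutation p = 0.0103, adjusted p = 0.133), -3.10 with the median over sites, and 0.0360 and -2.68 without Col-0 replicate 2 or 1 of the second set.

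In *rdr6* the SDG2-ZF lines had *MSH3* levels of 85.1% and 85.8% and the *rdr6* plants 81.6% and 80.2%. The lines lay 4.58 percentage points higher with no overlap, at the smallest p that 2 against 2 allows (exact permutation p = 0.333, adjusted p = 0.591). All 7 sites were higher, by 1.31 percentage points at 13044758 to 7.81 at 13044726. The SunTag-SDG2 rdr6 plants had 80.3% and 80.7%, which overlapped *rdr6* (difference -0.402, exact permutation p = 1, adjusted p = 1). Here 13044726 and 13044744 were higher, by 2.07 and 0.894 percentage points, and the other 5 sites lower, with the largest difference, -2.30, at 13044758. At *FWA* the same lines and plants were at 3.42% and 4.22% with SDG2-ZF and at 2.08% and 3.37% with SunTag-SDG2, against 85.1% and 85.8% in *rdr6*.

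The SunTag-SDG2 WT libraries had *MSH3* levels of 0.179% (replicate 1) and 84.0% (replicate 2), with *FWA* at 0.187% and 14.4%. With both, the difference from Col-0 was -38.6 percentage points (exact permutation p = 0.4, adjusted p = 0.626), and every site was lower, from -31.2 at 13044744 to -42.9 at 13044758. Without the library labelled replicate 1 the other was 3.26 percentage points above Col-0.

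In the plants with the bacterial methyltransferase, *MSH3* CG levels lay between those of *fwa* and Col-0, most of it on 2 sites. The dCAS9-MQ1 plants had *MSH3* levels of 22.6%, 8.47%, 11.6% and 6.31%, and the *fwa* plants at most 0.355%. The difference was 12.1 percentage points (12.2% ± 7.24, n = 4, against 0.166% ± 0.164, n = 3) with no overlap, but it did not pass the test (exact permutation p = 0.0571, adjusted p = 0.223; the smallest p the design allows is 0.0286). All 7 sites were higher, by 1.43 percentage points at 13044726 to 37.6 at 13044744. None of the 27 cytosines was called in the exact test and 0% of the 101 were, but with 4 plants against 3 that test could hardly call any. Of the 27, 2 had an unadjusted p under 0.05 (exact permutation test), and the quasi-binomial model called 11, all 7 CG sites among them. The share of the 101 is not given for these 2 counts. With the library labelled fwardr6 added to the *fwa* plants the difference turned to -8.12. The labels of the MQ1 plants name no background, and the *fwa* plants come from both sets of libraries while all MQ1 plants come from the first.

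With TRBIP1 added, *MSH3* levels were 21.2%, 22.1%, 12.1% and 18.9%, and 4 of 4 plants were above 3 of the 4 dCAS9-MQ1 plants. The mean of 18.6% ± 4.53 (SD, n = 4) was 6.34 percentage points above dCAS9-MQ1, within the spread between plants (exact permutation p = 0.229, adjusted p = 0.495). It was 9.79 without dCAS9-MQ1 replicate 1, the highest of its group (exact permutation p = 0.0571, adjusted p = 0.248), and 2.57 over the intron sites. All 7 sites were higher, by 0.109 percentage points at 13044726 to 17.8 at 13044701. None of the 27 cytosines was called and 0% of the 101 were, but with 4 plants against 4 the exact test could hardly call any. Of the 27, 1 had an unadjusted p under 0.05 (exact permutation test), and the quasi-binomial model called 0. At *FWA* the TRBIP1 plants had 54.9%, 57.6%, 45.8% and 47.7%, and the dCAS9-MQ1 plants 43.1%, 10.5%, 8.52% and 9.19%. The within-plant difference of *FWA* minus *MSH3* was 32.9 percentage points ± 2.87 with TRBIP1 and 5.58 ± 10.3 without, and it differed by 27.3 (exact permutation p = 0.0286, adjusted p = 0.0286, the smallest the design allows). Without any 1 of the 4 TRBIP1 plants the adjusted p was 0.0571.

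The 8 plants shared a pattern over the 7 sites. In each of them 13044744 (ttcttgCGaaatga) had the highest level, 21.3% to 65.6%, and 13044701 (gatcccCGacactt) the next highest, 12.9% to 55.6%. These 2 sites held 72.8% to 80.3% of the summed CG level of the 7, against 25.4% to 28.5% in the 3 Col-0 plants. No other site exceeded 15.9%. The site at 13044726 (aaatttCGaatagc) was the lowest in 8 of 8 plants, at 0.884% to 2.72%, and 13044758, the highest on average in Col-0, reached 1.01% to 6.46%. Relative to Col-0, the mean over the 8 plants was 62.6% of the Col-0 mean at 13044744, 45.6% at 13044701 and 2.24% at 13044726. These 2 sites were singled out after their values were seen, so their order is a description.

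**Figure D4:**
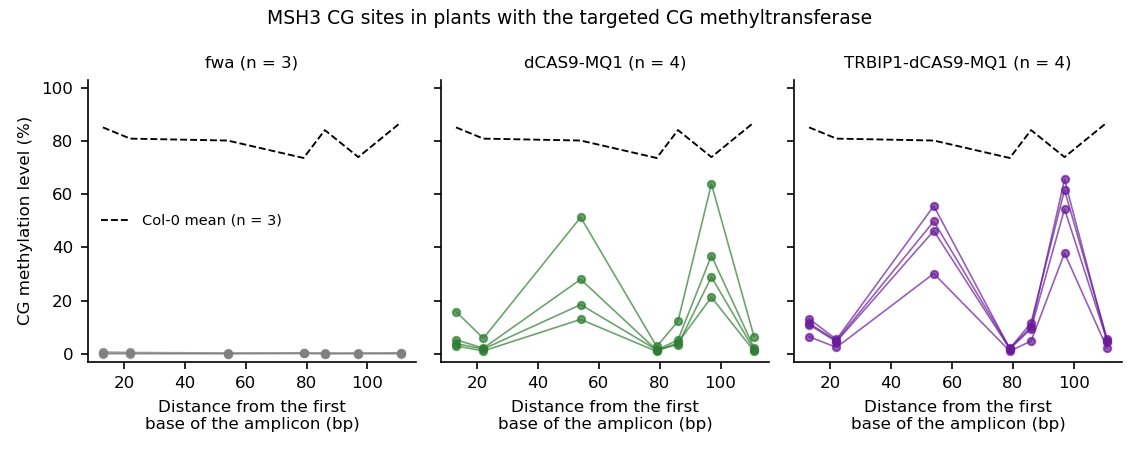
CG methylation level in percent of each *MSH3* CG site against its distance in bp from the first base of the window, 1 line per plant, in *fwa*, dCAS9-MQ1 and TRBIP1-dCAS9-MQ1, with the Col-0 mean dashed. In all 8 MQ1 plants the sites at 97 and 54 bp (13044744 and 13044701) are highest and the site at 79 bp (13044726) lowest.

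The CHG values of *MSH3* rested on 1 cytosine at the outer end of the window, and it cannot be said that they measure methylation. The CHG at 13044767, 3 bp before the last cytosine, kept C in 51.9% to 55.5% of reads in the first set of libraries and in 58.0% to 61.4% in the second. The *fwa* plants, whose CG level was at most 0.355%, were included in these ranges. As the primers of this window are not known here, a C brought in by a primer and a methylated C cannot be told apart at this position. The other CHG, at 13044700, had at most 1.57% in any library. As deposited, the CHG value passed the test in 4 of the 13 comparisons. SDG2-ZF Col0 minus Col-0 was -2.31 percentage points (adjusted p = 0.0473, exact permutation test), but it passed in 0 of the 11 fits with 1 plant left out and was -0.830 against the first-set Col-0 plant alone (adjusted p = 0.619, exact permutation test). The interaction with *rdd* was -1.58 (adjusted p = 0.00606, exact permutation test) and -0.105 with that control alone (adjusted p = 0.733, exact permutation test). It passed in 21 of 21 fits with 1 plant left out and was -0.899 without Col-0 replicate 2 of the second set. The p-values of these fits leave out the spread of the controls. The CHG SD was 1.43 in Col-0 (n = 3) against 0.243 in the SDG2-ZF Col0 lines (n = 8). SDG2cd(H1866K)-ZF minus SDG2-ZF Col0 was 2.45 (adjusted p = 0.0263, exact permutation test), and there the set of libraries and the construct cannot be told apart. Without 13044767 these 3 values were 0.0788, 0.0620 and 0.0389, and none passed (adjusted p = 0.705 to 0.792, exact permutation tests). SDG2-ZF Col0 minus SDG2-ZF rdd was 0.408 (adjusted p = 0.0473, exact permutation test), passed in 2 of 16 fits with 1 line left out, and was 0.847 at 13044700 alone (adjusted p = 0.00606, exact permutation test). CHH levels of *MSH3* passed in none of the 13 comparisons (adjusted p = 0.193 at the lowest, exact permutation tests).

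Across the 13 conditions the mean *MSH3* CG level followed that of *FWA* only loosely. Pearson's r was 0.247 for region 1, 0.313 for region 2 and 0.362 for region 3, as a description over conditions that share controls and libraries. These r values include the 2 libraries that went against their labels, SunTag-SDG2 WT replicate 1 and fwardr6, and are not given without them. In descending order, mean *MSH3* levels ran from SDG2-ZF rdr6 (85.5% ± 0.471, n = 2) and SDG2-ZF Col0 (82.5%) through SDG2cd(H1866K)-ZF (81.9%), the single fwardr6 library (80.9%), *rdr6* (80.9% ± 0.997, n = 2), Col-0 (80.7%) and SunTag-SDG2 rdr6 (80.5% ± 0.291, n = 2) to SDG2-ZF rdd (74.96%) and *rdd* (72.2%). Neighbours in this order from SDG2-ZF rdr6 to SunTag-SDG2 rdr6 differed by less than the SD of the wider of the 2 groups, except SDG2cd(H1866K)-ZF and the single fwardr6 library. SunTag-SDG2 WT (42.1%, the mean of libraries at 0.179% and 84.0%), TRBIP1-dCAS9-MQ1, dCAS9-MQ1 and *fwa* followed.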

How the data were processed

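Leaf DNA was bisulfite treated, amplified and sequenced by the authors, who deposited for each library a table of read counts per cytosine (reads with C and all reads) and the fraction C/(C + T). Reads were mapped to TAIR10 with BSMAP 2.90, keeping 1 best hit with at most 2 mismatches, and a read with over 3 methylated CHH sites in a row was dropped. The methods word this for whole-genome data and name no separate mapping, minimum or duplicate removal for BS-PCR-seq. The filter on CHH sites can lower the CHH level and so the measured background. The fewest reads were 16968 at one end of the window, 26836 at the other and 43804, their sum, between them, as when both mates of a pair are counted.

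Levels were computed from the counts. Exact two-sided permutation tests ran over plants or lines, for 13 comparisons in 3 contexts, for single cytosines and for *FWA* minus *MSH3*, with Benjamini-Hochberg adjustment, and were tested on simulated data. The named CG sites followed a rule: all in the description of the locus, and in each comparison those with the largest and smallest difference and those against the rest; CHG and CHH only by the site with the highest mean. Sites 13044700 and 13044770 were added after their values were seen. The window and all lists were chosen with earlier results of these data known. Alternatives were other minimums of reads (100, 2000), pooled counts, the median, the deposited fraction, exon or intron alone, the ends left out, CHH subtracted, an arcsine scale, each plant left out, either set of controls, a replicate block and, for sites, a quasi-binomial model and an adjusted p under 0.01. The 11 whole-genome samples have no table used here, and 2 SunTag-SDG2 libraries without a stated background entered no comparison. Python 3.11.15, numpy 2.4.6, pandas 2.3.3, scipy 1.17.1, biopython 1.88 and matplotlib 3.10.9 were used.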

Additional observations from a re-analysis of the deposited data

Results flagged for a closer look

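At 13044744 line 1 of SDG2-ZF rdd had 85.2%, under the 87.2% to 88.8% of the other 7 lines, a gap of 0.546 of the group's range. Among 40 groups and measures tested this was the 1 that stood out, and chance flags about 1 in 20.

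The effect of SDG2-ZF on the *MSH3* CHG level differed between the backgrounds by -1.58 percentage points (exact permutation test over the lines, which leaves out the spread of the controls, adjusted p = 0.00606). With first-set Col-0 alone as control it was -0.105 (adjusted p = 0.733, exact permutation test), and without the cytosine at 13044767 it was 0.0620 (adjusted p = 0.705, exact permutation test).

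The 2 SunTag-SDG2 libraries whose background the labels do not state had *MSH3* CG levels of 79.7% and 78.5%, above the 0.355% of the highest *fwa* plant, with *FWA* at 86.8% and 82.4%.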

How the results depend on the processing

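Read counts were high, with no cytosine under 16968, but the number of molecules behind them is not known. The number of plants and the set of libraries limited the precision. Thresholds of 100 and 2000 reads kept all 27 cytosines. The call of SDG2-ZF Col0 above SDG2-ZF rdd turned to -5.06 percentage points with the median over sites, -6.41 with intron sites, where it passed in the opposite direction (adjusted p = 0.0283, exact permutation test), and -4.45 without 13044701, and lost the test as 5.12 in the replicate block of lines 7 and 15. By construction these alternatives give the site at 13044701 less or no weight, except for the block. It pairs lines by their label number, and its 2 pairs cannot reach the threshold. For *rdd* minus Col-0 the same alternatives gave 1.95, 1.79 and 3.15. Differences that did not pass the test changed sign as follows, and the cause was not tested. SunTag-SDG2 rdr6 minus *rdr6* was 0.894 with the median, and the interaction was 0.405 with exon sites. With intron sites SDG2-ZF Col0 minus Col-0 was -0.713, SDG2cd(H1866K)-ZF minus Col-0 was -0.518 and SDG2cd(H1866K)-ZF minus SDG2-ZF Col0 was 0.195. SDG2cd(H1866K)-ZF minus Col-0 was -0.0219 with the first set of controls, and dCAS9-MQ1 minus *fwa* was -8.12 with the library labelled fwardr6 added. Alternatives without 13044701, without 13044767 and with fwardr6 added were chosen after the data were seen.

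With each plant left out, SDG2-ZF Col0 minus Col-0 ran from 0.0905 to 2.81, TRBIP1-dCAS9-MQ1 minus dCAS9-MQ1 from 4.36 to 9.79, SDG2cd(H1866K)-ZF minus Col-0 from -0.505 to 2.22, SDG2cd(H1866K)-ZF minus SDG2-ZF Col0 from -1.47 to 0.313, SunTag-SDG2 rdr6 minus *rdr6* from -1.11 to 0.303, SunTag-SDG2 WT minus Col-0 from -80.6 to 3.26, the interaction from -2.68 to 0.0360, and *FWA* minus *MSH3* for TRBIP1 from 24.5 to 32.3. A lone plant left in a group was compared by permutation. The replicate block could change no other call, since the other comparisons run with it were not called and its few pairs cannot reach the threshold. For the block, the correlation of deviations from group means between same-numbered dCAS9-MQ1 and TRBIP1-dCAS9-MQ1 plants was 0.762, -0.860, 0.535 and 0.513, so the numbers were not taken as pairs. Of the 26 CHG and CHH comparisons, 4 were called, and 1 with pooled counts, 2 with the median, 1 without 13044767, 1 and 2 with controls of the first and the second set, and 2 to 4 with a plant left out. Called cytosines in SDG2-ZF Col0 minus Col-0 were 2, 7 with the quasi-binomial model, 0 at an adjusted p under 0.01 and 0 to 2 with a plant left out. In SDG2-ZF rdd minus *rdd* they were 0, 7 with the model and 0 to 7 with a plant left out, and in dCAS9-MQ1 minus *fwa* 0 and 11 with the model. All are counts among the 27 *MSH3* cytosines, and for these alternatives the share over the 101 cytosines is not given.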
